A study of Mus musculus with 92 samples.

Results

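The genes described here are 9 nuclear genes listed together for mitochondrial DNA transcription and replication: Tfam, Tfb1m, Tfb2m, Polrmt, Tefm, Twnk, Polg, Polg2 and Ssbp1. They were picked by name for their known function, with earlier results of these data known, and all 9 were found by symbol among the 56953 genes of the deposited tables. The cells were B6 mouse embryonic stem cells (mESCs) grown in serum with LIF and the inhibitors PD0325901 and CHIR99021. Both alleles of a targeted gene carried a dTAG degron, a tag that lets the small molecule dTAG-13 send the fused protein to degradation. Of the 92 samples in the labels, 26 are used here, in groups of 2 libraries that the series describes as biological duplicates. RNA-seq covered 3 lines, with the genotypes Gabpa dTAG/dTAG, Gabpb1 dTAG/dTAG and Gabpb1/b2 dTAG/dTAG (called here the GABPA, GABPB1 and GABPB1/GABPB2 lines), each after 12 h in 500 nM dTAG-13 or in DMSO, the solvent. SLAM-seq, in which RNA made in the presence of 500 µM 4-thiouridine is read with T-to-C conversions, was done only in the GABPA line after 1, 2, 4 and 12 h of dTAG-13. Its DMSO controls were a 1 h group, a 12 h group and a group titled for 2 to 4 h whose treatment label gives 2 h. The 2 h and 4 h comparisons share that last control group. The study asked what the ETS-family factor GABPA controls, early and late after its loss, and whether its GABPB partners are needed. The labels do not say whether each line is 1 clone, and no untagged line was used here.

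The mitochondrial genome is a small circle that is read by its own single-subunit RNA polymerase, POLRMT. TFAM coats and bends the DNA and recruits POLRMT to the promoters, TFB2M melts the promoter, and TEFM keeps the polymerase on the template. TFB1M, a relative of TFB2M, methylates the small ribosomal RNA of the mitochondrial ribosome. Replication uses the DNA polymerase POLG with its accessory subunit POLG2, the helicase Twinkle (Twnk), and the single-strand binding protein SSBP1. GABP is a complex in which the alpha subunit, GABPA, binds ETS-type sites with a GGAA core and the beta subunits, GABPB1 or GABPB2, carry the activation domain. It is a textbook regulator of nuclear genes for mitochondrial proteins, Tfam and the TFB genes among them.

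The promoter sequences below show where letters of the ETS type lie, since these are the letters GABPA can bind. RefSeq promoters of build GRCm38.p6, from 250 bases before to 50 after the annotated start, matched all 9 genes, at 10 starts in all, since Twnk has a pair. The 7 letters CCGGAAG, on either strand, occurred in 7 of the 9 genes: Tfam, Polrmt, Tefm, Twnk, Polg, Polg2 and Ssbp1. They occurred in 8.86% of all 32851 promoters in the table. Counted per gene, as for the 9, they occurred in 18.95% of the 11322 genes tested in RNA-seq with a promoter there. The windows run from 130 bases before the start to its edge, 5′ to 3′ on the gene's strand, with capitals marking CCGGAAG or its reverse complement, except that in Tfb2m they mark the shorter CGGAAG. Tfam, Tefm, Twnk and Ssbp1 are shown because their RNA fell after GABPA loss, Polrmt and Polg because theirs did not pass the test although the letters are there, and Tfb2m because only the shorter letters are there.
Tfam (chr10:71238045-71238174, minus strand): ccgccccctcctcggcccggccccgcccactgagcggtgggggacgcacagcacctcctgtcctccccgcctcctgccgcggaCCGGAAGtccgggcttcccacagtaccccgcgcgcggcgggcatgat
Tefm (chr11:80142154-80142283, minus strand): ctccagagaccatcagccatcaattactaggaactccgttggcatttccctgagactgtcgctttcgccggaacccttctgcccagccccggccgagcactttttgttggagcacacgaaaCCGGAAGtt
Twnk, downstream start (chr19:45006428-45006557, plus strand): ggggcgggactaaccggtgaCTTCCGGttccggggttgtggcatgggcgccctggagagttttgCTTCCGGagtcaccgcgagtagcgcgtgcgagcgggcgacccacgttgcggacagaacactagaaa
Ssbp1 (chr6:40471338-40471467, plus strand): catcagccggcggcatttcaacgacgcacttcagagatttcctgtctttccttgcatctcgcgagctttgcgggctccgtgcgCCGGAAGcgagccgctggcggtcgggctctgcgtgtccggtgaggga
Polrmt (chr10:79746582-79746711, minus strand): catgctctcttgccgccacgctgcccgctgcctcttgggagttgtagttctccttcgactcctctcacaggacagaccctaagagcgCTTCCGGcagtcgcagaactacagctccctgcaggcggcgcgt
Polg (chr7:79466274-79466403, minus strand): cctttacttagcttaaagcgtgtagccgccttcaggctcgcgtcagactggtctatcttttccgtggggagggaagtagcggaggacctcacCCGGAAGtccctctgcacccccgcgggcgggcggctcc
Tfb2m (chr1:179546277-179546406, minus strand): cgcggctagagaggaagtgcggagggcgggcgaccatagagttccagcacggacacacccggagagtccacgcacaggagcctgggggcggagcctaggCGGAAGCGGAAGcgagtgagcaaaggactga
The letters began 47 bases before the start in both Tfam and Ssbp1, 43 in Polrmt, 38 in Polg, 29 in Polg2 and 9 in Tefm. At the downstream start of Twnk they occurred at 110 and 66 bases before the start, on the reverse strand. Those same bases are the letters that lie 56 and 12 bases before the start of Mrpl43, a mitochondrial ribosomal protein gene on the other strand. The upstream Twnk start, 895 bases away, and the Tfb1m promoter held none of the letters searched. Both hold the bare core GGAA in the 130 bases before the start, Tfb1m on the reverse strand. That core alone was not searched, and its share over all promoters was not counted. Tfb2m held CGGAAG as a tandem pair beginning 31 and 25 bases before the start, with a further match after the start on the reverse strand. These letters lie within CCGGAAG, and 16.9% of all promoters and 33.1% of the tested genes hold them. The letters GCATGCG, of the type bound by the factor NRF1, occurred in Polrmt, 132 bases before the start, and in Tfb2m, just after it. They were present in 3.58% of all promoters and in 7.00% of the tested genes. A match describes letters only, and no binding was measured here.

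**Figure D1:**
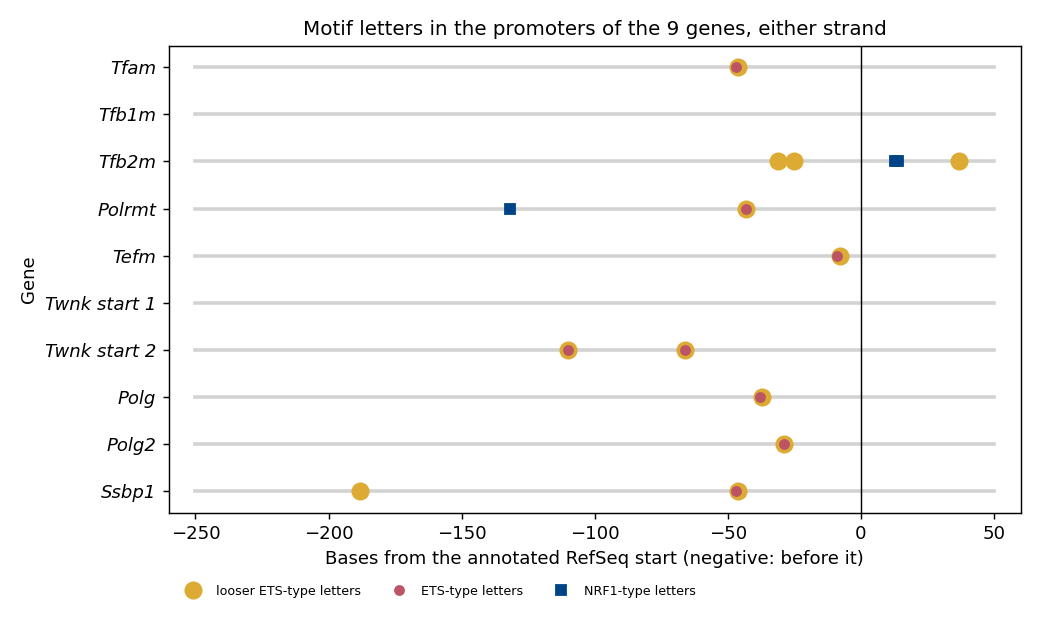
Position of motif letters in the RefSeq promoters of the 9 genes, in bases from the annotated start (vertical line), one row per start. Red points are CCGGAAG, yellow points the shorter CGGAAG and blue squares GCATGCG, on either strand. In Tfam, Ssbp1, Polrmt, Polg, Polg2 and Tefm the red point lies 47 to 9 bases before the start, and the pair of Twnk lies farther away, at 110 and 66.

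RNA-seq libraries held 16.0 M to 32.1 M counts (M for 1000000) and SLAM-seq libraries 11.5 M to 30.7 M reads, of which 0.937 M to 4.25 M (5.06% to 14.1%) were converted. The tests covered 16396 genes in RNA-seq and 15887 in SLAM-seq, and all 9 genes passed the low-count filter in both. The degraded target is a protein, so Gabpa mRNA does not check its loss: it measured 48.9 and 46.4 CPM (counts per 1000000 of the scaled library) in the DMSO libraries of the GABPA line and 64.6 and 70.0 CPM after dTAG-13. In the other lines it lay between 142 and 239 CPM. All 8 stem cell markers were detected in every library, with summed levels of 5635 to 7513 CPM in RNA-seq. After dTAG-13 in the GABPA line, 1 of them fell and 3 rose (Nanog at -0.34, Tfcp2l1 at 0.36, Sox2 at 0.20 and Dppa5a at 0.16 on the log2 scale). Over all genes tested there, 46.5% were called, 21.9% lower and 24.6% higher. In SLAM-seq at 12 h, 3 of the 8 markers fell and 2 rose, where 18.3% of all genes were called lower and 12.3% higher. The sum of the 8 markers was 6081 and 6270 CPM in DMSO and 4849 and 5230 CPM in dTAG-13. The part of these marker values in the results below was not tested. In RNA-seq, 8 markers of feeder fibroblasts summed to 6.1 to 13.5 CPM. In such bulk libraries, fewer cells of a type and less RNA per cell cannot be told apart.

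Compared per transcript length, as TPM (transcripts per 1000000) in the DMSO libraries of the GABPA line, Ssbp1 stood highest at 171 and 165. Tfam followed at 35.5 and 37.9, Twnk at 31.6 and 30.3 and Polrmt at 26.7 and 28.6. Tefm (17.0 and 17.8) and Tfb1m (16.9 and 17.0) overlapped, and the other neighbours in this order did not. Polg gave 14.3 and 14.5 TPM, Tfb2m 12.0 and 10.9, and Polg2 was lowest at 5.76 and 5.69. Levels in DMSO also differed between the lines, which were not tested against each other. Ssbp1 gave 108 and 104 CPM in the GABPA line, against 43.2 and 48.2 in the GABPB1 line and 54.8 and 54.9 in the GABPB1/GABPB2 line. Tefm went the other way, at 14.03 and 14.7 CPM in the GABPA line, 32.1 and 35.1 in the GABPB1 line and 25.2 and 27.4 in the GABPB1/GABPB2 line.

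After 12 h of GABPA degradation, 7 of the 9 genes fell and none rose by edgeR's quasi-likelihood test at a Benjamini-Hochberg adjusted p under 0.05. Among all genes tested, 46.5% were called, 21.9% lower and 24.6% higher. The 7 were Tfam, Tfb1m, Tfb2m, Tefm, Twnk, Polg2 and Ssbp1, while the RNA polymerase gene Polrmt and Polg, the catalytic subunit of the DNA polymerase, did not pass. The median log2 fold change of the 9 genes was -0.89, against 0.06 over all genes tested. Leaving out any 1 of the 4 libraries left 7 calls.

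In the transcription branch, Tfam (chromosome 10, 71061294 to 71074110, minus strand, build mm39 as for all gene intervals below) measured 88.9 and 90.7 CPM in DMSO and 44.3 and 47.8 CPM in dTAG-13. Both treated libraries lay at about the same level, well below the controls. The log2 fold change was -0.96 (SE 0.07, n = 2 libraries per group, edgeR adjusted p = 6.79e-09), a 1.95-fold lower level. Tfb2m (chromosome 1, 179355620 to 179373832, minus strand), the promoter-melting factor, measured 20.6 and 18.7 CPM in DMSO and 12.4 and 12.5 CPM in dTAG-13. Its groups did not overlap, and its log2 fold change was -0.66 (SE 0.12, edgeR adjusted p = 0.000201). The methyltransferase gene Tfb1m (chromosome 17, 3569531 to 3608056, minus strand) measured 15.2 and 15.3 CPM in DMSO and 7.56 and 8.84 CPM in dTAG-13. Its control libraries nearly coincided, and the log2 fold change was -0.89 (SE 0.11, edgeR adjusted p = 5.02e-06). Tefm (chromosome 11, 80027504 to 80033001, minus strand), the elongation factor, measured 14.03 and 14.7 CPM in DMSO and 7.43 and 9.61 CPM in dTAG-13. The treated libraries of Tefm differed more from each other than the controls did, and the log2 fold change was -0.75 (SE 0.12, edgeR adjusted p = 8.04e-05). Polrmt (chromosome 10, 79571957 to 79582415, minus strand), the polymerase itself, measured 73.1 and 78.3 CPM in DMSO and 76.1 and 67.5 CPM in dTAG-13. These ranges overlapped, and the log2 fold change of -0.08 (SE 0.08) had an edgeR adjusted p of 0.468.

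In the replication branch, Twnk (chromosome 19, 44994102 to 45001201, plus strand), the helicase gene, had the lowest log2 fold change of the 9. It measured 72.9 and 68.9 CPM in DMSO and 14.9 and 15.2 CPM in dTAG-13. The treated libraries were 4.71-fold lower, a log2 fold change of -2.24 (SE 0.09, edgeR adjusted p = 2.24e-12). The estimated length of the Twnk transcripts, averaged by their abundance, was 3200 and 3164 bases in DMSO and 2572 and 2575 bases in dTAG-13, so the transcripts counted after treatment were on average shorter. In the GABPB1 line that length was 3123 and 3065 bases in DMSO and 3061 and 3052 bases in dTAG-13, and in the GABPB1/GABPB2 line 3112 and 3019 bases in DMSO and 2867 and 2851 bases in dTAG-13. Treated libraries were thus lower in all 3 lines, by least in the GABPB1 line, and these lengths were not tested. Ssbp1 (chromosome 6, 40448286 to 40461634, plus strand), for the single-strand binding protein, measured 108 and 104 CPM in DMSO and 43.6 and 53.7 CPM in dTAG-13. Its log2 fold change was -1.12 (SE 0.09, edgeR adjusted p = 3.73e-08). Polg2 (chromosome 11, 106659079 to 106670363, minus strand), the accessory subunit, rested on few counts, 95 and 113 in DMSO and 24 and 46 in dTAG-13. That is 5.65 and 5.58 CPM against 1.49 and 2.71 CPM, a log2 fold change of -1.41 (SE 0.22, edgeR adjusted p = 4.44e-05). The treated libraries of Polg2 were both lower but differed widely from each other. Polg (chromosome 7, 79095979 to 79116110, minus strand), the catalytic subunit, measured 84.9 and 86.1 CPM in DMSO and 82.8 and 75.8 CPM in dTAG-13. The log2 fold change of -0.11 (SE 0.06, edgeR adjusted p = 0.181) did not pass, although the ranges did not overlap.

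**Figure D2:**
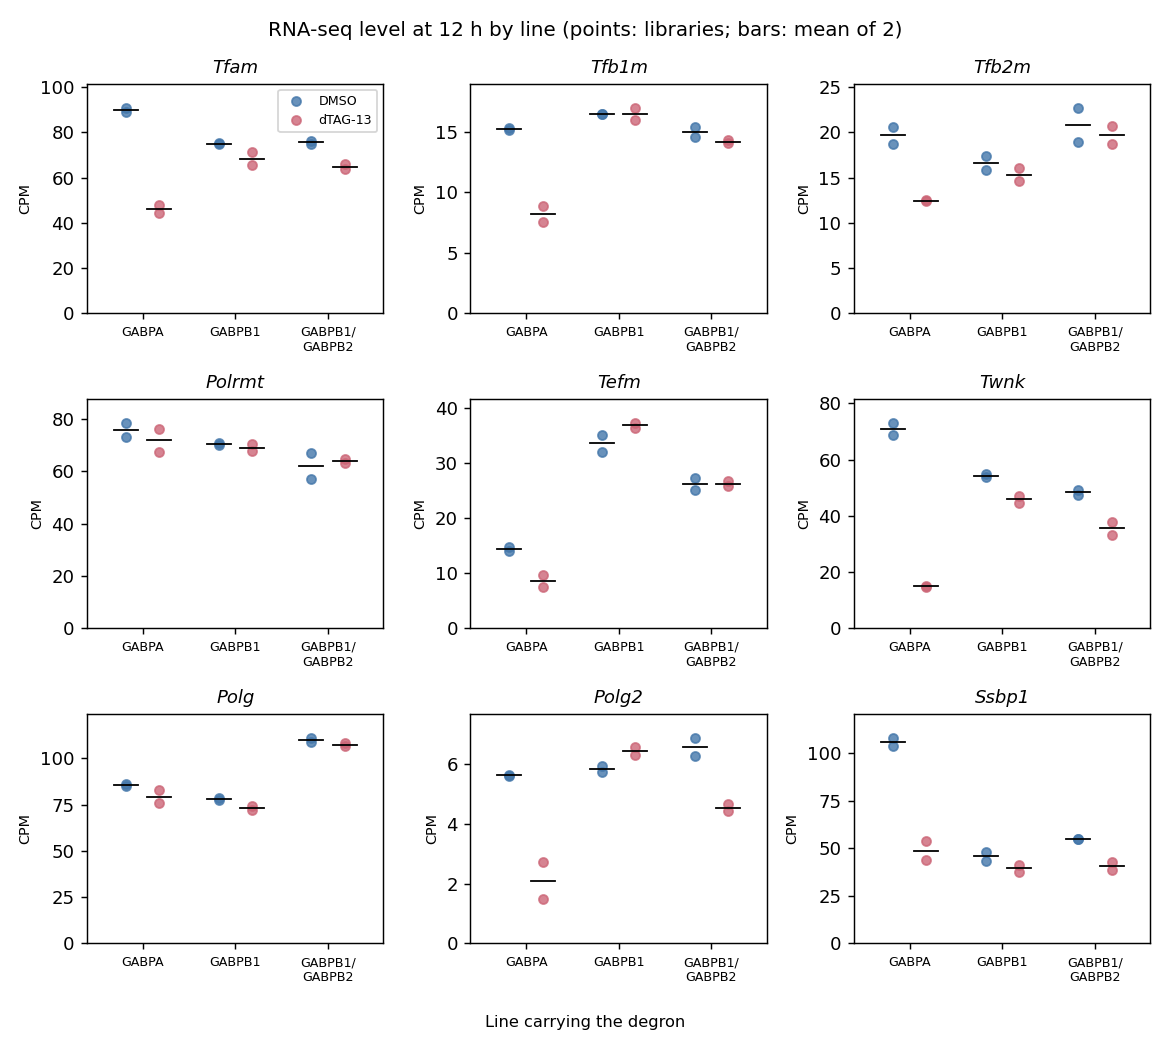
RNA-seq level of each gene in CPM (linear axes starting at 0) in the 3 lines after 12 h in DMSO (blue) or dTAG-13 (red); points are libraries and bars the mean of 2. In the GABPA line, Twnk drops from 72.9 and 68.9 to 14.9 and 15.2 CPM, while the red and blue points of Polrmt overlap.

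The letters CCGGAAG did not sort the 9 genes by response. Of the 7 genes that hold them, Tfam, Tefm, Twnk, Polg2 and Ssbp1 fell, while Polrmt and Polg did not pass. Of the genes without them, Tfb1m and Tfb2m fell. Tfb2m holds the shorter CGGAAG. Tfb1m holds none of the letters searched, only the bare core GGAA, whose share over all promoters was not counted. Over all tested genes with a promoter in the table, 50.6% of the 2145 genes with the letters fell, and 17.9% of those without.

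In the GABPB1 line, none of the 9 genes passed edgeR's test (6.75% of all genes tested were called, 5.46% lower and 1.28% higher). At an unadjusted p under 0.05 there were 2, and DESeq2 called 0. Twnk came nearest, at 53.7 and 54.8 CPM in DMSO and 47.0 and 44.7 CPM in dTAG-13. Both treated libraries lay below both controls, with a log2 fold change of -0.24 (SE 0.07, edgeR adjusted p = 0.0568). When the 4 libraries of this line were fitted alone, Twnk (adjusted p = 0.00241) and Ssbp1 (-0.20, adjusted p = 0.0269) passed, a setting that also raised the calls over all genes from 1106 to 3187. Tfam was at -0.13 (SE 0.07, edgeR adjusted p = 0.298), Tefm at 0.13 and Polg2 at 0.14 on the log2 scale.

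In the GABPB1/GABPB2 line, Twnk, Ssbp1 and Tfam fell and the other 6 did not pass (12.8% of all genes tested were called, 9.26% lower and 3.53% higher). Twnk measured 49.3 and 47.5 CPM in DMSO and 33.3 and 37.8 CPM in dTAG-13, without overlap. Its log2 fold change was -0.45 (SE 0.08, edgeR adjusted p = 0.000698). Ssbp1 measured 54.8 and 54.9 CPM in DMSO and 38.5 and 42.6 CPM in dTAG-13, again without overlap. Its log2 fold change was -0.44 (SE 0.10, edgeR adjusted p = 0.00509), and without the first dTAG-13 library it was -0.36 (adjusted p = 0.0968). Tfam measured 75.0 and 76.3 CPM in DMSO and 63.9 and 65.9 CPM in dTAG-13, both treated libraries below both controls. Its log2 fold change of -0.22 (SE 0.07, edgeR adjusted p = 0.0424) was lost without any 1 of the 4 libraries (adjusted p from 0.0588 to 0.246) and in DESeq2 (0.0671). Polg2 was at -0.54 (SE 0.18, edgeR adjusted p = 0.0656). The remaining log2 fold changes lay between -0.08 and 0.04.

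The difference between lines was then tested directly. The log2 fold change in the GABPA line was below that in the GABPB1 line for all 9 genes, and the difference was called for 7 of them (25.7% of all genes tested were called in this contrast, 13.3% lower and 12.5% higher in the GABPA line). The same 7 genes were called against the GABPB1/GABPB2 line (20.7% of all genes, 10.7% lower and 10.1% higher in the GABPA line); both contrasts use the GABPA line's 4 libraries. DESeq2 called 6 in the second contrast, without Polg2 (adjusted p = 0.0526), and 5 remained called without the first DMSO library of the GABPA line, which lost Tfb2m and Polg2. For Twnk the difference in log2 fold change was -1.99 (SE 0.11, edgeR adjusted p = 1.55e-09) from the GABPB1 line and -1.79 (SE 0.12, adjusted p = 2.6e-08) from the GABPB1/GABPB2 line. For Tfam these differences were -0.83 (SE 0.10, edgeR adjusted p = 5.51e-06) and -0.74 (SE 0.10, adjusted p = 3.59e-05). Tfb2m had the smallest called differences, -0.53 (edgeR adjusted p = 0.0188) and -0.58 (adjusted p = 0.0148), and both were lost without the first DMSO library of the GABPA line (adjusted p = 0.0794 and 0.0685). Polg2 differed by -1.55 (edgeR adjusted p = 0.000384) from the GABPB1 line and by -0.87 (adjusted p = 0.0387) from the GABPB1/GABPB2 line. The second of these was -0.51 (adjusted p = 0.22) without the first dTAG-13 library of the GABPA line, and was lost without either of its DMSO libraries (0.0817 and 0.0799) or either dTAG-13 library of the GABPB1/GABPB2 line (0.0563 and 0.0794). Polrmt and Polg gave differences between -0.12 and -0.02, none called. Between the GABPB1/GABPB2 and GABPB1 lines none of the 9 differed by edgeR's test (1.01% of all genes were called, 0.927% lower and 0.0854% higher), 1 had an unadjusted p under 0.05, Polg2, and DESeq2 called 0. Depletion of the GABPB proteins themselves is not measured in these libraries.

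**Figure D3:**
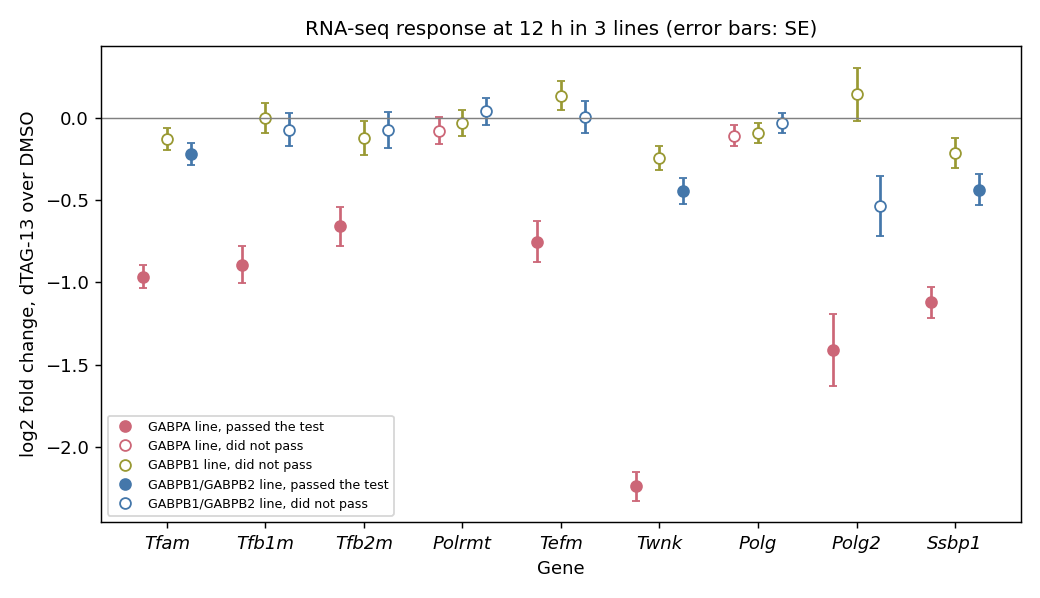
Log2 fold change (dTAG-13 over DMSO, RNA-seq, 12 h) of each gene in the GABPA (red), GABPB1 (olive) and GABPB1/GABPB2 (blue) lines, with standard errors; filled points passed the test. Red points of 7 genes lie between -0.66 and -2.24, while every olive and blue point lies above -0.55.

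Unless all reads are named, the SLAM-seq values below count only reads with T-to-C conversions, the mark of RNA made during labelling. No SLAM-seq library without the label was used here, so conversions from other sources were not measured. After 1 h of dTAG-13, Tfam and Tefm fell and no member rose (1.78% of all genes tested were called, 1.72% lower and 0.0567% higher). After 2 h Tfam was called (3.35% of all genes, 3.21% lower), and Tefm passed only under some other settings. After 4 h Tfam, Tefm and Twnk were called (4.02% of all genes, 3.91% lower). After 12 h Tfam, Tefm, Twnk, Ssbp1, Tfb2m and Tfb1m were called lower and none higher (30.6% of all genes, 18.3% lower and 12.3% higher).

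Tfam measured 179 and 145 CPM of converted reads in the 1 h DMSO libraries and 86.5 and 68.3 CPM after 1 h of dTAG-13. The groups lay far apart, with a log2 fold change of -1.06 (SE 0.18, edgeR adjusted p = 0.00158). The share of all Tfam reads that were converted was 9.56% and 8.27% in DMSO and 5.27% and 4.03% in dTAG-13, while the log2 fold change in all Tfam reads was -0.26 (adjusted p = 1). At 2 h, Tfam measured 88.3 and 89.2 CPM against 149 and 151 CPM in the shared DMSO group, and at 4 h 89.8 and 95.8 CPM. Its log2 fold changes were -0.76 (SE 0.17, edgeR adjusted p = 0.00873) and -0.69 (SE 0.17, adjusted p = 0.0184). At 12 h it measured 223 and 242 CPM in DMSO and 79.4 and 82.8 CPM in dTAG-13, a log2 fold change of -1.52 (SE 0.16, edgeR adjusted p = 1.11e-07). Treated libraries thus lay below the controls at all 4 times, but the early calls were fragile. The 1 h call was lost without the first DMSO (adjusted p = 0.0555) or second dTAG-13 library (0.062), the 2 h call without 3 of its 4 libraries (highest adjusted p = 0.0818) and the 4 h call without any 1 of them (0.0641 to 0.178).

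Tefm measured 167 and 186 CPM of converted reads in the 1 h DMSO libraries and 68.3 and 94.6 CPM in dTAG-13. The groups were again far apart, with a log2 fold change of -1.13 (SE 0.23, edgeR adjusted p = 0.00727), and 19.9% and 22.2% of Tefm reads were converted in DMSO against 11.7% and 13.5% in dTAG-13. The call was lost without the second DMSO library (adjusted p = 0.0820) or the first dTAG-13 library (adjusted p = 0.243). In the shared DMSO group Tefm measured 70.5 and 98.9 CPM, against 44.8 and 57.1 CPM after 2 h and 31.6 and 49.0 CPM after 4 h. Its log2 fold changes were -0.74 at 2 h (SE 0.23, edgeR adjusted p = 0.0852, or 0.0262 without the low-count filter and 0.0336 without the first DMSO library) and -1.05 at 4 h (SE 0.24, adjusted p = 0.0111, or 0.136 without the second DMSO and 0.228 without the first dTAG-13 library). At 12 h it measured 150 and 125 CPM in DMSO and 50.1 and 40.3 CPM in dTAG-13, a log2 fold change of -1.58 (SE 0.21, edgeR adjusted p = 4.21e-06). Tefm also had high converted shares, up to 54.7% of its reads in DMSO at 12 h, against 14.1% and 13.99% over all genes in those libraries.

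Tfb1m measured 26.3 and 37.9 CPM in DMSO and 18.8 and 21.0 CPM in dTAG-13 at 12 h, low levels that rested on 20 to 84 converted reads per library over all groups. Its log2 fold change of -0.71 (SE 0.27, edgeR adjusted p = 0.0491) was lost in DESeq2 (adjusted p = 0.165) and without any 1 of the 4 libraries (highest adjusted p = 0.418). Tfb2m measured 44.8 and 57.3 CPM in DMSO and 33.9 and 27.8 CPM in dTAG-13 at 12 h. Its log2 fold change of -0.70 (SE 0.23, edgeR adjusted p = 0.0224) was also lost in DESeq2 (adjusted p = 0.0795) and without the second DMSO library (0.223) or either dTAG-13 library (0.0517 and 0.156). Between 39.1% and 66.7% of the Tfb2m reads mapped to more than 1 place, against 3.92% to 9.06% over all genes, and Ssbp1, at 10.9% to 26.4%, was also above that range. Polrmt had 10 to 58 converted reads per library and passed at no time, with log2 fold changes from -0.70 at 2 h (SE 0.38) to 0.26 at 12 h (SE 0.37).

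Twnk was first called at 4 h. Its converted reads were few, 23 and 33 in the 1 h DMSO libraries, 34 and 17 after 1 h of dTAG-13, and 12 to 109 per library over all groups. At 1 h it measured 24.8 and 29.4 CPM of converted reads in DMSO and 31.0 and 17.9 CPM in dTAG-13, and the groups overlapped (log2 fold change -0.14, SE 0.35). After 2 h it measured 17.2 and 29.2 CPM and after 4 h 13.8 and 11.7 CPM, against 38.0 and 31.1 CPM in their DMSO group. The 4 h log2 fold change was -1.44 (SE 0.35, edgeR adjusted p = 0.0138), lost without 3 of the 4 libraries (highest adjusted p = 0.17). At 12 h it measured 37.9 and 49.2 CPM in DMSO and 8.91 and 6.80 CPM in dTAG-13, a log2 fold change of -2.41 (SE 0.31, edgeR adjusted p = 2.08e-06). The share of Twnk reads that mapped to more than 1 place was 1.40% and 1.41% in DMSO and 7.65% and 17.1% in dTAG-13 at 12 h, and its part in the result was not tested. Tested directly, the 12 h response was lower than the 1 h response by -2.27 (SE 0.47, edgeR adjusted p = 0.00449; -1.78 and 0.0694 without the first 1 h dTAG-13 library). Twnk was the only 1 of the 9 called in that contrast, in which 6.84% of all genes were called, 4.7% lower and 2.14% higher at 12 h. Over all genes, 5.06% to 6.08% of reads were converted in the 1 h libraries and 12.1% to 14.1% in the 12 h libraries. The part of that difference in the contrast was not tested. Between 4 h and 2 h of dTAG-13 edgeR called none of the 9 and 0% of all genes, with 2 members, Twnk and Polg2, and 657 genes in all at an unadjusted p under 0.05, and DESeq2 called 0.

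Ssbp1 measured 111 and 96.3 CPM of converted reads in DMSO and 73.8 and 83.0 CPM in dTAG-13 at 1 h, with a log2 fold change of -0.40 (SE 0.20, edgeR adjusted p = 0.476). The treated libraries lay below the controls at 2 h and 4 h as well, at -0.50 (edgeR adjusted p = 0.169) and -0.45 (adjusted p = 0.246). At 12 h it measured 157 and 128 CPM in DMSO and 57.3 and 62.9 CPM in dTAG-13, a log2 fold change of -1.25 (SE 0.18, edgeR adjusted p = 7.02e-06). Of its reads at 12 h, 10.9% and 14.2% in DMSO and 17.5% and 19.7% in dTAG-13 mapped to more than 1 place. Polg at 12 h measured 25.0 and 18.9 CPM of converted reads in DMSO and 30.3 and 26.1 CPM in dTAG-13, both treated libraries slightly higher (log2 fold change 0.38, SE 0.25, edgeR adjusted p = 0.272). In all reads of the same libraries Polg went the other way, at -0.72 (adjusted p = 0.00203), a setting in which 57.4% of all genes were called, 27.6% lower and 29.8% higher. That setting called 7 of the 9 lower at 12 h, Polg in addition to the 6 of the converted reads.

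The Polg2 values differ between the assays. RNA-seq gave at most 208 Polg2 counts per library, whereas its SLAM-seq interval held 4438 to 11594 reads. Each of these reads covered 5.74 to 6.38 T positions on average, against a median over genes of 19.6 to 23.4, and 1.23% to 3.15% of them were converted. At 12 h that interval measured 64.7 and 74.9 CPM of converted reads in DMSO and 79.9 and 123 CPM in dTAG-13. The log2 fold change of 0.51 (SE 0.20, edgeR adjusted p = 0.0584) had the opposite sign to the -1.41 of RNA-seq, and which transcripts these reads come from was not tested.

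**Figure D4:**
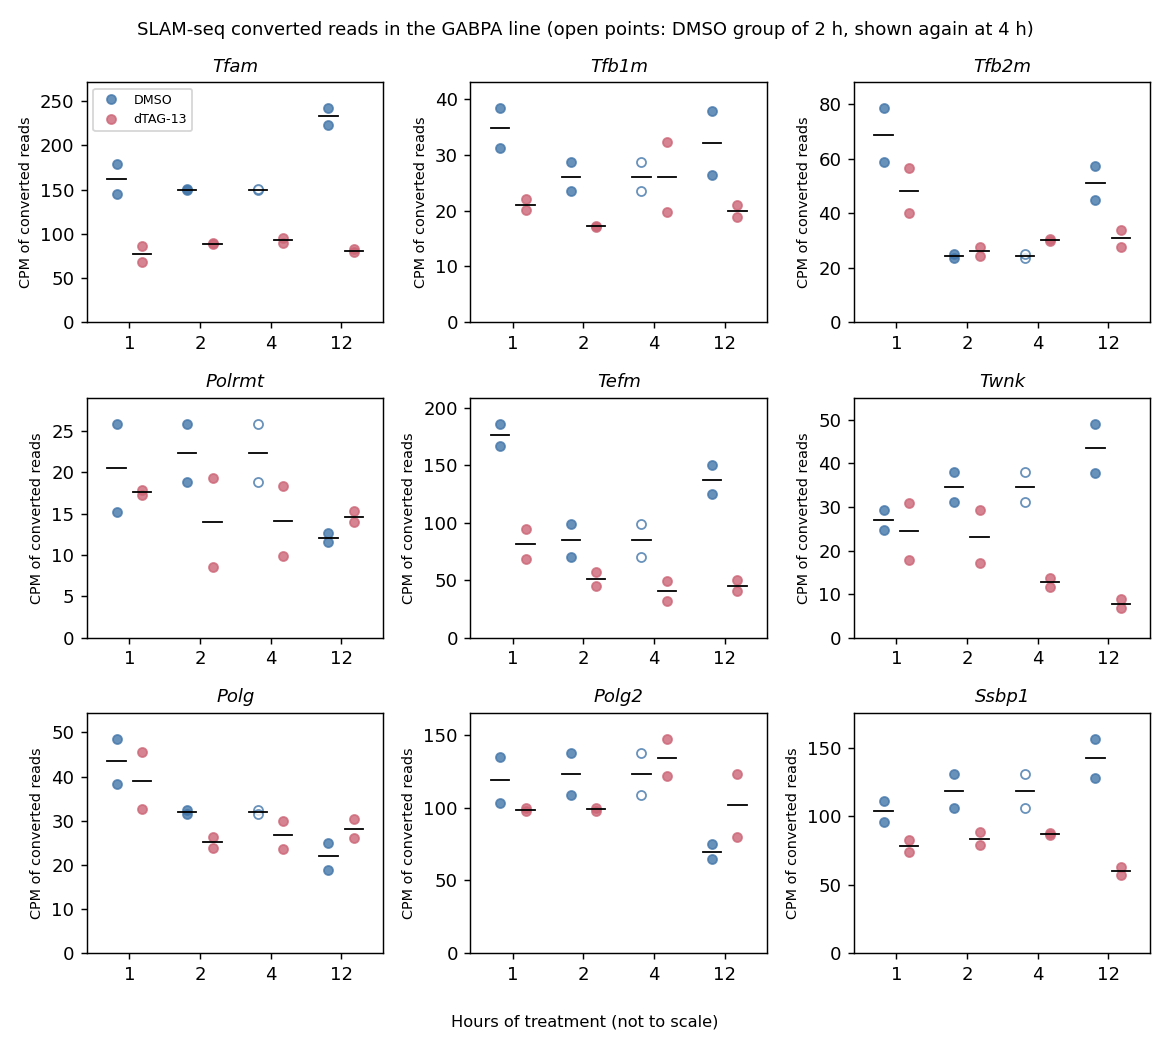
Converted SLAM-seq reads of each gene in CPM (linear axes starting at 0) in the GABPA line after 1, 2, 4 and 12 h in DMSO (blue) or dTAG-13 (red); points are libraries, bars the mean of 2, and open points repeat at 4 h the DMSO group of 2 h. Tfam and Tefm are lower in dTAG-13 at every time, while Twnk overlaps its controls at 1 h and ends at 8.91 and 6.80 CPM at 12 h.

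Overlapping genes matter here because the sources used here do not state whether counting used strand. Twnk overlaps Mrpl43 on the opposite strand by 780 bases. In RNA-seq Mrpl43 measured 60.9 and 65.9 CPM in DMSO and 11.03 and 9.32 CPM in dTAG-13 in the GABPA line, a log2 fold change of -2.64 (SE 0.11, edgeR adjusted p = 4.95e-12). Its converted reads were called lower at all 4 times, at -1.40 at 1 h (SE 0.25, edgeR adjusted p = 0.00216), -1.19 at 2 h (adjusted p = 0.00116), -1.38 at 4 h (adjusted p = 0.000293) and -2.43 at 12 h (adjusted p = 8.19e-09). So Mrpl43 was called at 1 h and 2 h, when Twnk was not, and reads of the shared stretch could count for either gene. Polg overlaps Fanci, a DNA repair gene, by 4034 bases on the opposite strand, and Fanci fell in the GABPA line by RNA-seq (log2 fold change -0.85, SE 0.08, edgeR adjusted p = 1.24e-07) and in SLAM-seq at 12 h (-0.83, adjusted p = 0.00615). Tfb2m starts 103 bases from Cnst on the opposite strand, and Cnst did not pass in RNA-seq (-0.21, SE 0.11, edgeR adjusted p = 0.109). Tfb1m overlaps Tiam2 by 12089 bases, and Tiam2 did not pass (-0.38, edgeR adjusted p = 0.0776). It also overlaps Cldn20 by 656 bases (-0.54 in RNA-seq, edgeR adjusted p = 0.696) and 1700102H20Rik by 303. Gm15480 overlaps Tfb2m by 519 bases, Milr1 overlaps Polg2 by 542, and Gm10616 starts 47 bases from Polg. All of these lie on the opposite strand. Except for Cldn20 in RNA-seq, the added genes did not pass the low-count filter, so reads they share with members were not tested. Tfam, Polrmt, Tefm and Ssbp1 had no overlapping gene and no gene starting within 1000 bases.

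Other genes of the same pathway moved in both directions after 12 h of GABPA degradation, in an RNA-seq comparison where 21.9% of all genes fell and 24.6% rose. Of 16 further factors for mtDNA maintenance, 9 fell and 5 rose in RNA-seq (median -0.29). They included Ogg1, a DNA repair glycosylase (-2.36, edgeR adjusted p = 2.34e-11), Primpol, a primase-polymerase (-0.77, adjusted p = 0.0028), Top1mt, the mitochondrial topoisomerase (0.90, adjusted p = 3.26e-05), and Exog, a nuclease (0.87, adjusted p = 4.59e-06). Of 23 genes for transcription termination and RNA handling, 11 fell and 2 rose (median -0.23). Fastkd5 (-2.07, edgeR adjusted p = 1.11e-08) and Trmt10c, a subunit of mitochondrial RNase P (-1.47, adjusted p = 6.36e-10), had the lowest values, and Prorp (0.32, adjusted p = 0.00568) and Lrpprc (0.24, adjusted p = 0.00796) rose. Of 16 genes for mitochondrial nucleotide supply, 3 fell and 6 rose (median 0.13), the fallen near the share over all genes, with Mpv17 and the thymidine kinase gene Tk2 both at -1.72 (edgeR adjusted p = 1.36e-10 and 1.3e-08) and Abat at 1.77 (adjusted p = 0.000203). In SLAM-seq the RNA-handling list had 2 genes called lower at 1 h, Trmt10c (-1.29, edgeR adjusted p = 0.000107) and Slirp (-0.88, adjusted p = 0.0185). Over all genes 1.72% were called lower at that time. The list had 2 called lower at 2 h and 3 at 4 h (3.21% and 3.91% of all genes). At 12 h it had 12 lower and 1 higher, when 18.3% of all genes were called lower and 12.3% higher. Of the 15 nucleotide supply genes tested at 12 h, 5 fell and 3 rose. The maintenance list had 7 called lower and 0 higher at 12 h. At 1, 2 and 4 h edgeR called 0 of its 16 genes, with 2, 4 and 5 at an unadjusted p under 0.05, and DESeq2 called 0.

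The RNAs that this machinery makes were called higher or not at all in the GABPA line. Of the 13 protein genes of the mitochondrial genome, none fell and 5 rose in RNA-seq of the GABPA line (median 0.26; 21.9% of all genes fell and 24.6% rose), led by mt-Atp6 (1.00, edgeR adjusted p = 0.000214) and mt-Co1 (0.39, adjusted p = 0.00587). Summed over the 13, they took 0.866% and 0.831% of counts in DMSO and 0.983% and 1.06% in dTAG-13. The GABPB1 line had 2.26% and 2.24% in DMSO and 2.20% and 2.18% in dTAG-13. The GABPB1/GABPB2 line had 2.32% and 3.30% in DMSO and 2.71% and 2.99% in dTAG-13. In that line 1 of the 13 fell and 0 rose (9.26% of all genes fell). In the GABPB1 line edgeR called 0 of the 13, with 2 at an unadjusted p under 0.05, and DESeq2 called 0. In SLAM-seq at 12 h 7 of the 13 rose and none fell (median 0.52, where 12.3% of all genes rose and 18.3% fell), among them mt-Nd3 (1.24, edgeR adjusted p = 0.00545) and mt-Nd2 (1.02, adjusted p = 7.52e-05). Their summed share of converted reads at 12 h was 2.85% and 2.20% in DMSO and 3.90% and 4.71% in dTAG-13. The 1 h DMSO libraries alone differed widely, at 2.83% and 4.01%. At 4 h 11 of the 13 had a log2 fold change below 0 (median -0.40), but edgeR called 0 at 1, 2 and 4 h, with 1, 1 and 5 at an unadjusted p under 0.05, and DESeq2 called 0. These libraries select RNA with poly(A) tails, so shares of mitochondrial RNA also depend on its tails, and the number of mitochondrial DNA copies was not measured.

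**Figure D5:**
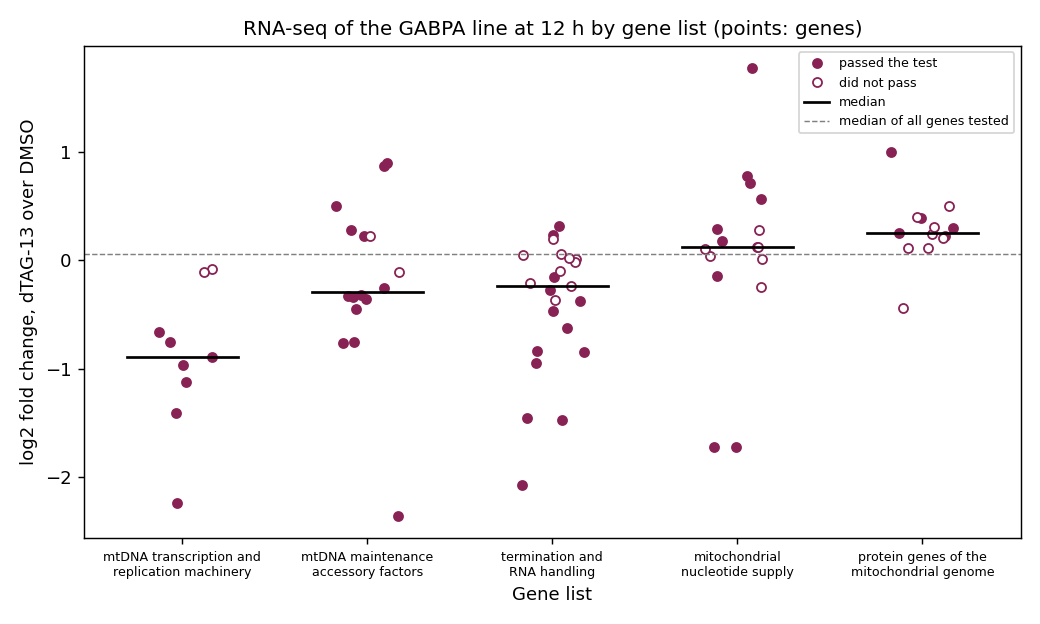
Log2 fold change (dTAG-13 over DMSO, RNA-seq, GABPA line, 12 h) of single genes in 5 lists; filled points passed the test, bars are list medians and the dashed line is the median of all genes tested (0.06). The 9 genes for mtDNA transcription and replication have a median of -0.89, the 13 protein genes of the mitochondrial genome one of 0.26.

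The genes whose responses lay nearest to each called member were found by Euclidean distance over the 7 log2 fold changes of the 3 RNA-seq and 4 SLAM-seq comparisons, among 8629 candidates (8630 for Polg2). For Tfam they were Sra1 (distance 0.33) and Mettl2 (0.34), and for Ssbp1 they were Yme1l1 (0.34), a mitochondrial protease gene, and Nup37 (0.36). For Tefm they were Nudc (0.50) and Trim39 (0.51), and for Twnk Mtap (0.52) and Ndufaf7 (0.71), an assembly factor of respiratory complex I. Mtap had log2 fold changes of -2.24 in RNA-seq of the GABPA line, -0.37 at 1 h, -1.07 at 4 h and -2.62 at 12 h. For Tfb1m they were Rnf214 (0.39) and Cxadr (0.43), for Tfb2m Nudcd1 (0.39) and Cluap1 (0.40), and for Polg2 Zbed5 (0.66) and Exd2 (0.70). The Polg2 distances include 4 values from its SLAM-seq interval, whose reads have the limits given above. Distances over 7 comparisons, 2 of which share a control group, describe likeness only.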

How the data were processed

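RNA-seq libraries of 3 lines and SLAM-seq libraries of the GABPA line were analysed. The members and the gene lists were chosen with earlier results of these data known. Groups came from the labels. Of 92 labelled samples, 66 were not used here.

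For RNA-seq, the deposited tables give expected counts and TPM per gene, in the form RSEM writes, with an average transcript length in bases. Per the submitters' processing notes, the listed tools include STAR 2.7.11a, RSEM 1.3.1 and Trim Galore 0.6.7, and the build is mm39. Expected counts were rounded to whole numbers here. For SLAM-seq, the deposited tables give counts of all reads, of reads with T-to-C conversions and of multi-mapped reads per gene interval, written by slamdunk 0.4.3 per the file headers. The use of strand in counting is not stated in those sources.

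Genes passing filterByExpr (minimum count 10, total 15) were tested with edgeR 4.0.16 (TMM scaling, quasi-likelihood test, R 4.3.3), with 1 fit of group means per assay. P-values were adjusted by Benjamini-Hochberg over every tested gene, with a threshold of 0.05. The SE was taken from the log2 fold change and the square root of F. CPM values use TMM-scaled library sizes. No 2 libraries were identical. All named genes follow 1 rule: every member, per list and comparison up to 2 called genes with the largest rise and 2 with the largest fall, neighbours, the 3 GABP genes and the 2 nearest genes per called member. Of these, only some are printed. The procedure was tested on simulated data. The alternatives were DESeq2 1.42.0, DESeq2 size factors, no low-count filter, an average log2 CPM of at least 3, only the libraries compared, a replicate block, each library left out, all SLAM-seq reads, and RNA-seq without mitochondrial genome genes. Marker lists were 8 stem cell and 8 feeder fibroblast genes. Proteins and a genome of build mm39 were not used here.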

Additional observations from a re-analysis of the deposited data

Results flagged for a closer look

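Responses of 7 genes differed between lines at 12 h in RNA-seq, by edgeR's test of the difference itself. Over all genes tested, 25.7% were called against the GABPB1 line and 20.7% against the GABPB1/GABPB2 line. The GABPA response minus the GABPB1 response was, on the log2 scale, -0.83 for Tfam, -0.89 for Tfb1m, -0.53 for Tfb2m, -0.88 for Tefm, -1.99 for Twnk, -1.55 for Polg2 and -0.91 for Ssbp1. The GABPA response minus the GABPB1/GABPB2 response was -0.74 for Tfam, -0.82 for Tfb1m, -0.58 for Tfb2m, -0.76 for Tefm, -1.79 for Twnk, -0.87 for Polg2 and -0.68 for Ssbp1. Against the GABPB1/GABPB2 line, Polg2 was not called by DESeq2 (adjusted p = 0.0526). That Polg2 call and both Tfb2m calls also depended on single libraries, as given above. In SLAM-seq the Twnk response at 12 h differed from that at 1 h by -2.27, where 6.84% of all genes were called. The Twnk call was lost without the first 1 h dTAG-13 library. No group had the 4 samples that a search for outlying libraries needs.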

How the results depend on the processing

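With 2 libraries per group, low counts limited the precision for Polg2 in RNA-seq and for Twnk, Polrmt and Tfb1m in SLAM-seq. In the GABPA line every alternative gave 7 calls, except 6 when genes under an average log2 CPM of 3, Polg2 among them, were dropped. In the GABPB1 line 0 calls became 1 under that minimum and 2 with only the libraries compared. At 2 h, 1 call became 2 without the low-count filter, 2 with the replicate block and 0 in all reads. With all SLAM-seq reads the 2 calls at 1 h became 0 and the 1 call in the contrast of 12 h with 1 h became 6. All reads also turned Polg at 12 h (-0.72), and Tfb1m (-0.95) and Polg (-0.63) in the contrast of 12 h with 1 h. The causes were not tested.

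Leaving out 1 library gave 7 calls in the GABPA line, 0 in the GABPB1 line and 1 to 2 in the GABPB1/GABPB2 line. It gave 6 to 7 for the difference of GABPA from GABPB1, 5 to 7 for that from GABPB1/GABPB2 and 0 between the GABPB lines. In SLAM-seq it gave 1 at 1 h, 0 to 2 at 2 h, 0 to 1 at 4 h, 4 to 5 at 12 h, 0 to 2 for 12 h against 1 h and 0 for 4 h against 2 h. Counts over all genes moved by over 1.5 times in the GABPB1 line (1106 to 3187 with only its libraries), the GABPB1/GABPB2 line (2097 to 1311 with only its libraries), at 1 h (282 to 1 in all reads), at 2 h (533 to 319 with only its libraries, 58 in all reads), at 12 h (4857 to 15481 in all reads), for 12 h against 1 h (1087 to 9783 in all reads), between the GABPB lines (166 to 322 without the filter) and for 4 h against 2 h (0 to 27 without the filter, 1 with the block, 32 in all reads). Without 1 library they were 341 to 417 in the GABPB1 line, 1162 to 2551 in the GABPB1/GABPB2 line, 87 to 333 between the GABPB lines, 78 to 165 at 1 h, 269 to 498 at 2 h, 304 to 521 at 4 h (639 with all), 2951 to 3788 at 12 h, 447 to 1158 for 12 h against 1 h and 0 to 10 for 4 h against 2 h.

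The labels tie same-numbered libraries by number only. Deviations of these libraries correlated across genes at r between -0.04 and 0.29, highest in the 2 h comparison. The replicate block gave the 2 calls at 2 h above, Tfam and Tefm (adjusted p = 0.0378).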
